A study of Mus musculus with 6 samples.

Results

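The collagen VI chain genes Col6a1, Col6a2, Col6a3, Col6a5 and Col6a6 were followed in the tibia of Col1a1+/- and wild-type (WT) mice. These 5 genes were taken by their mouse symbols from tables of 56748 gene identifiers, and all 5 were found, each as 1 identifier. RNA was sequenced from 3 tibia samples labelled Col1a1+/- and 3 labelled WT, all from female mice 12 weeks old, and no treatment is named for these samples. The bones were flash frozen after flushing out the marrow, and poly-A RNA was selected for sequencing. The labels give neither how the Col1a1 allele was made nor whether the 3 samples of a genotype are different animals; the p-values therefore refer to the spread among these samples, which may be technical. Levels are counts-per-million (CPM) scaled with TMM (trimmed mean of M values) factors, and folds are Col1a1+/- over WT.

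Type VI collagen is a beaded microfibril that lies close to cells, between them and the fibrillar collagens. The classical monomer joins 1 chain each from Col6a1, Col6a2 and Col6a3. These monomers pair into dimers and tetramers inside the cell and link end to end outside it. The chains of Col6a5 and Col6a6 are related to that of Col6a3 and can take its place. Fibroblast-like cells of muscle, tendon and skin are major sources, chondrocytes are surrounded by it, and human mutations in the genes of the classical chains cause Bethlem and Ullrich muscular dystrophies.

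Libraries held 26.8 to 32.4 M reads. Col1a1 itself, the gene named by the genotype, took 61149, 52880 and 59598 CPM in the 3 Col1a1+/- libraries, against 36810, 61347 and 54799 CPM in WT, and the genotypes overlapped (log2 fold change 0.18, SE 0.31, adjusted p = 0.78 by edgeR). Col1a2, the other chain gene of type I collagen, took 73118, 68194 and 72425 CPM in Col1a1+/- and 27904, 49103 and 43108 CPM in WT. Col1a1 thus lay below Col1a2 in every Col1a1+/- library and above it in every WT library. The ratio of Col1a1 to Col1a2 was not tested. Across 18514 genes tested with edgeR's quasi-likelihood test, 265 were called higher and 538 lower in Col1a1+/- at a Benjamini-Hochberg adjusted p under 0.05, which is 1.43% and 2.91% of the genes (4.34% in all). This split depended on the scaling, with 588 higher and 739 lower on library totals and 5 higher (0.0270%) and 1085 lower (5.86%) when libraries were scaled on osteocyte genes. All 3 Col1a1+/- libraries lay above all 3 WT libraries for 14.0% of tested genes and below them for 14.5%. A list of 18 skeletal muscle genes summed to 17272 to 36951 CPM in Col1a1+/- and 52452 to 81424 CPM in WT. All 18 had a log2 fold change below 0 (-6.10 to -1.12, median -1.42). For 16 of them all Col1a1+/- libraries lay below all WT libraries, beside the 14.5% of tested genes. Of the 18, 6 were called lower, beside 2.91% of tested genes, and none had 0 reads in all libraries. A list of 10 neutrophil genes stood apart in WT replicate 1 (5108 CPM, against 896 to 1554 CPM in the other libraries).

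The 5 genes lie at 3 places in the genome, all on the minus strand. Col6a1 (ENSMUSG00000001119) spans chromosome 10, 76544626 to 76562002 on GRCm39, with 4.38 kb of exon in 34 blocks. Col6a2 (ENSMUSG00000020241) lies beside it at 76431596 to 76459464 on chromosome 10, 85.2 kb away, with 8.33 kb of exon. Col6a3 (ENSMUSG00000048126) is alone on chromosome 1, at 90693645 to 90771693, with 12.0 kb of exon. Col6a5 (ENSMUSG00000091345; 105733277 to 105837842) and Col6a6 (ENSMUSG00000043719; 105565008 to 105705359) are neighbours on chromosome 9 with 27.9 kb between them. Col6a4, a further chain gene of this cluster that was not among the 5, follows 28.8 kb beyond Col6a5. No exon of Col6a1, Col6a2, Col6a3 or Col6a5 overlapped another gene of the counting annotation. In Col6a6 0.687% of exon length did, and in Col6a4 3.39%, in both cases with a gene on the opposite strand, and the counting used no strand.

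The promoter windows of Col6a1, Col6a2 and Col6a3 are shown because the ratios between these genes varied less over the libraries than their levels, as described further on. This was closest for the neighbours Col6a1 and Col6a2 (ratio of reads 0.970 to 1.06). It was looser for Col6a3, on another chromosome (0.627 to 0.818 over Col6a1). Each window runs from 250 bases before to 50 after the gene's start, 5′ to 3′ on the gene's strand, from RefSeq on GRCm38.p6 (an earlier build than that of the counts), at chr10:76725995-76726294, chr10:76623355-76623654 and chr1:90843922-90844221, each on the minus strand. Capitals mark motifs found on either strand. The search covered the TATA box as TATAAA, the CCAAT box by those letters, the GC box as GGGCGG and the AP-1 motif as TGACTCA. The run CCCTCC, called CT-rich here, was added after the Col6a1 window had been seen.
Col6a1: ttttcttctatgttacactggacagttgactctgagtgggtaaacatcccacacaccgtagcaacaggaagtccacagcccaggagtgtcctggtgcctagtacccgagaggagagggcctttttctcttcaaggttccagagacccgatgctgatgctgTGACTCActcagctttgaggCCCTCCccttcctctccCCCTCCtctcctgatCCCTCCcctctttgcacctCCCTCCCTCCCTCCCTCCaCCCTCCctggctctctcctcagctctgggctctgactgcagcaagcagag
Col6a2: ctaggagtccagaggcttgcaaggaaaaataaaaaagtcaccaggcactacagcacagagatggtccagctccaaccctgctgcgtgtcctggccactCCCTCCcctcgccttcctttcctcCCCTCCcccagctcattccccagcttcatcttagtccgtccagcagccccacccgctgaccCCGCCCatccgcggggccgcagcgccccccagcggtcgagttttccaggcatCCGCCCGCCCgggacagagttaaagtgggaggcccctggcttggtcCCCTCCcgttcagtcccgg
Col6a3: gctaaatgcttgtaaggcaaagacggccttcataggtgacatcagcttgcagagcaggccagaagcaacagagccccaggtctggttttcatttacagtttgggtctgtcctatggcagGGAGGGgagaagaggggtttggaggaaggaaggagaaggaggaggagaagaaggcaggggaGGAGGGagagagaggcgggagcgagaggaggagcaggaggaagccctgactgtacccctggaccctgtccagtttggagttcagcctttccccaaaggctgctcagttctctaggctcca
None of these 3 windows held a TATA box or a CCAAT box, which occur in 13.6% and 37.4% of 32851 mouse promoter windows of the same length. The CT-rich run occurred 8 times in the Col6a1 window, with copies that overlap each other just before the start, 3 times in that of Col6a2 and 2 times, on the opposite strand, in that of Col6a3. It is common, being found in 39.2% of all windows. The Col6a1 window held 1 AP-1 motif, 90 bases before the start (5.20% of all windows), and the Col6a2 window held 3 GC boxes, 2 of them overlapping (35.7% of all windows). RefSeq lists a second, overlapping window for Col6a2, which is not shown. No motif of the set was found in all 3 windows other than the CT-rich run, and a match of letters is not a measured binding site.

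Col6a1, Col6a2 and Col6a3 were expressed at a high level in both genotypes, and Col6a5 and Col6a6 were low, with 14 to 197 reads a library. Per kb of exon, Col6a1 stood at 173 ± 46.0 CPM in Col1a1+/- and 99.6 ± 9.80 CPM in WT, Col6a2 at 92.0 ± 23.6 and 51.8 ± 5.48 CPM, and Col6a3 at 30.9 to 60.9 and 23.1 to 26.1 CPM, in the same order of genotypes (mean ± SD, n = 3 each; range for Col6a3). Col6a5 was at 0.572 ± 0.109 CPM per kb in Col1a1+/- and 0.431 ± 0.0655 CPM per kb in WT, and Col6a6 at 0.0780 ± 0.0131 and 0.126 ± 0.0784 CPM per kb. The order Col6a1, Col6a2, Col6a3, Col6a5, Col6a6 held in the group means of both genotypes, and in each of the 6 libraries. Among 44 collagen genes ranked by mean CPM per kb of exon, Col6a1 was 8th, Col6a2 10th and Col6a3 16th, whereas Col6a5 was 34th and Col6a6 39th.

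The step between Col6a1 and Col6a2 depended on the length used. The annotation behind the counts gives Col6a2 8.33 kb of exon over all its transcripts, while its longest protein-coding transcript in GENCODE M21 has 4.65 kb (4.10 kb for Col6a1 and 10.1 kb for Col6a3). By that length, a measure chosen after the data were seen, Col6a1 stood at 184 ± 49.2 and Col6a2 at 165 ± 42.3 CPM per kb in Col1a1+/-. In WT they stood at 106 ± 10.5 and 92.6 ± 9.81 CPM per kb. These SDs are between libraries and do not measure the spread of the gap, as the ratio of reads within a library varied only from 0.970 to 1.06. Col6a3 was then at 53.9 ± 17.8 CPM per kb in Col1a1+/- and 29.4 ± 1.79 CPM per kb in WT, below both by either length.

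Col6a1, Col6a2 and Col6a3 were each about 1.7 to 1.8 times as high in Col1a1+/- as in WT tibia, with no overlap between the genotypes, and none of the 5 genes passed the threshold over all genes. Col6a1, the alpha 1 chain gene, had 524, 852 and 891 CPM in replicates 1, 2 and 3 of Col1a1+/-, against 396, 481 and 432 CPM in WT. All 3 Col1a1+/- libraries were above all 3 WT libraries, with replicate 1 of Col1a1+/- only 1.09 times the highest WT library. The log2 fold change was 0.79 (1.73-fold, with an SE of 0.21 and an adjusted p of 0.063 by edgeR). The exact two-sided permutation p was 0.1 for each of Col6a1, Col6a2 and Col6a3, the smallest that 3 against 3 allow.

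Col6a2, the alpha 2 chain gene, had 540, 857 and 900 CPM in Col1a1+/- and 402, 484 and 407 CPM in WT. The libraries kept the order seen for Col6a1 within Col1a1+/-, and again the nearest pair, Col1a1+/- replicate 1 and WT replicate 2, lay 1.12-fold apart. Its log2 fold change was 0.83 (1.78-fold; SE 0.20, adjusted p = 0.055 by edgeR).

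Col6a3 encodes the longest of the 3 classical chains, whose end is cut off outside the cell and gives the fragment endotrophin. It had 370, 534 and 729 CPM in Col1a1+/- and 303, 312 and 277 CPM in WT. The WT libraries were close together and the Col1a1+/- libraries spread over 1.97-fold, all of them above WT. Its log2 fold change was 0.87 (1.83-fold; SE 0.22, adjusted p = 0.0616 by edgeR).

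**Figure D1:**
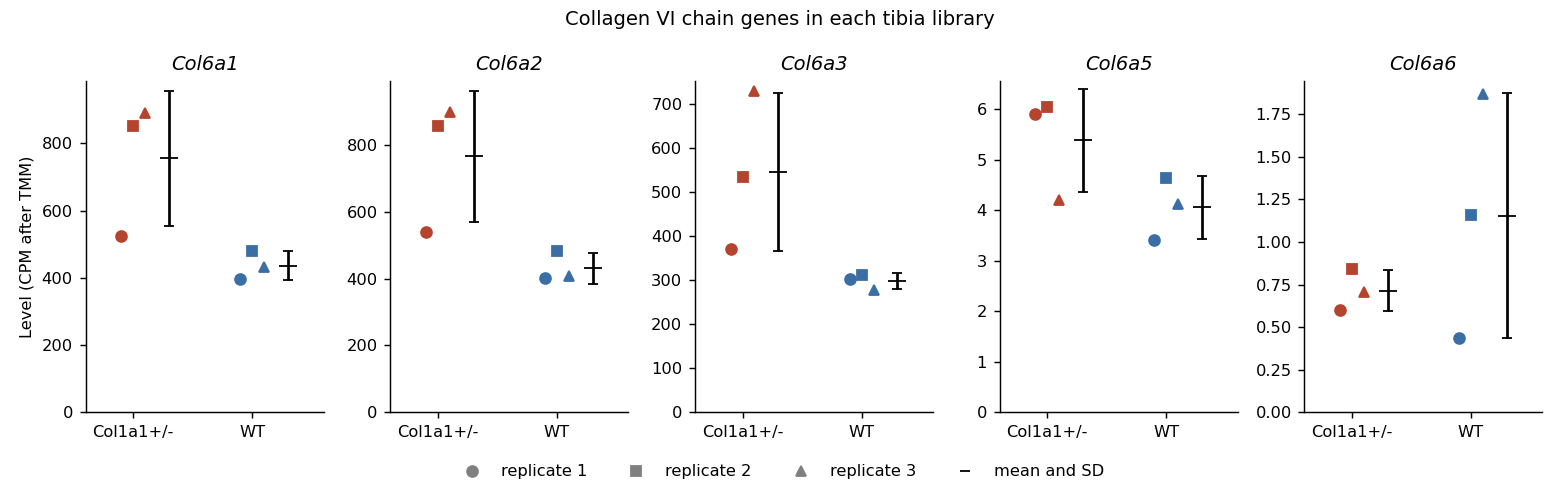
Level of each collagen VI chain gene in CPM after TMM (y axes start at 0 and differ between panels) for 3 Col1a1+/- and 3 WT tibia libraries, with the mean and SD. Col6a1, Col6a2 and Col6a3 are higher in every Col1a1+/- library than in any WT library, with Col1a1+/- replicate 1 closest to WT, while the genotypes overlap for Col6a5 and Col6a6.

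So 0 of the 5 genes were called by edgeR and 0 by limma-voom (1.40% of all tested genes were called higher by it), while 3 had an unadjusted p under 0.05 (22.8% of all tested genes did) and DESeq2 called 3 higher, beside 4.26% of all tested genes called higher by DESeq2. With DESeq2 the adjusted p was 2.91e-03 for Col6a1, 1.32e-03 for Col6a2 and 2.38e-03 for Col6a3; over the 10 alternatives other than leaving out a library it ranged from 2.91e-03 to 0.776, from 1.32e-03 to 0.776 and from 2.38e-03 to 0.837. On library totals 3 were called higher, beside 3.18% of all genes, and without a filter on low counts 2 were, beside 1.78%. Of all tested genes 3.41%, 2.99% and 2.58% had a log2 fold change at or above those of Col6a1, Col6a2 and Col6a3. The 3 genes whose libraries did not overlap compare with 14.0% of tested genes whose Col1a1+/- libraries were all higher. In bulk tissue, fewer or more cells of a type and less or more RNA per cell cannot be told apart.

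Single Col1a1+/- libraries moved the size of the difference. Without replicate 1 the log2 fold changes were 1.01, 1.04 and 1.10 for Col6a1, Col6a2 and Col6a3, and without Col1a1+/- replicate 3 they were 0.68, 0.72 and 0.63. In these and the other 4 comparisons that leave out 1 library the adjusted p by edgeR lay between 0.0659 and 0.191 for the 3 genes. Scaling on osteocyte genes moved the median of all genes to -0.55. This scale rests on 10 genes, which summed to 454 to 935 CPM in WT. On it the SE of Col6a1, Col6a2 and Col6a3 was 0.42, 0.42 and 0.41, against 0.21, 0.20 and 0.22 with TMM. The 3 genes then stood at 0.24, 0.28 and 0.26 (adjusted p = 0.706, 0.662 and 0.674 by edgeR). They lay 0.79, 0.83 and 0.82 above that median, against 0.80, 0.84 and 0.88 with TMM. Scaling shifts all genes by nearly the same amount, so this distance cannot test the difference. With the muscle list as a covariate Col6a1 and Col6a2 were at 0.89 and 0.87 and Col6a3 at 0.50 (SE 0.40, 0.39 and 0.41), and with the neutrophil list Col6a1 was at 0.53, Col6a2 at 0.60 and Col6a3 at 0.71.

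**Figure D2:**
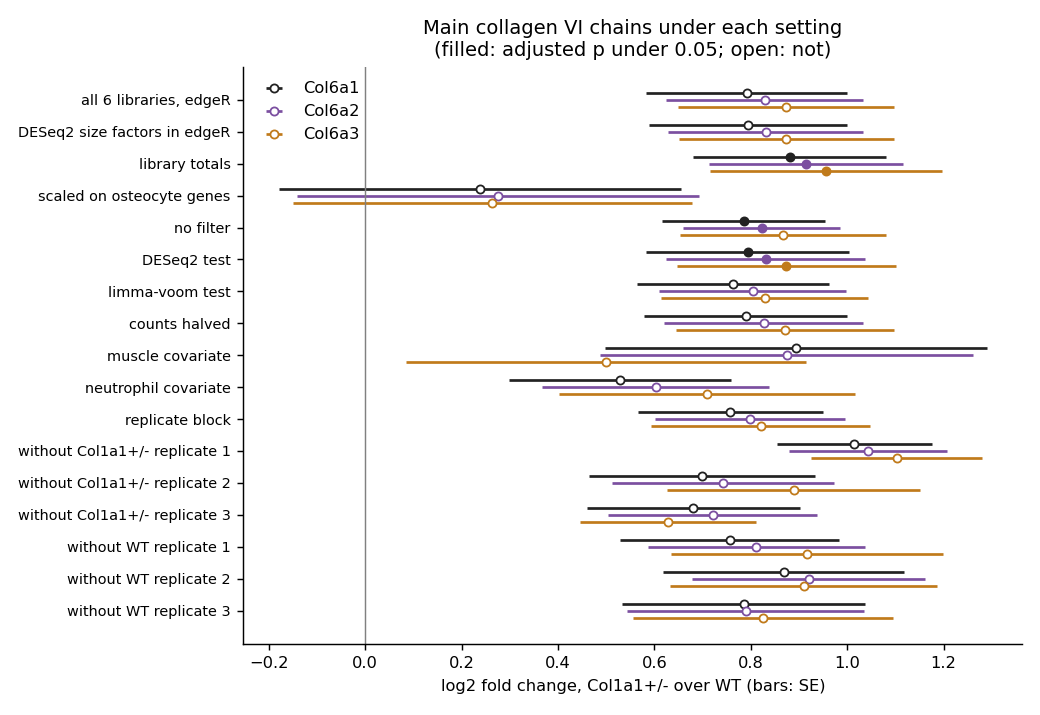
Log2 fold change (Col1a1+/- over WT, with SE) of Col6a1, Col6a2 and Col6a3 with all libraries and under each alternative, filled where the adjusted p is under 0.05. All points lie above 0; the lowest belong to scaling on osteocyte genes, and the highest to leaving out Col1a1+/- replicate 1 (1.01 to 1.10).

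The minor chain genes gave no difference that passed the test. Col6a5, whose chain can replace the alpha 3 chain, had 197, 173 and 119 reads in Col1a1+/- and 110, 128 and 119 in WT. These are 5.90, 6.05 and 4.20 CPM in Col1a1+/- and 3.41, 4.64 and 4.12 CPM in WT, so that Col1a1+/- replicate 3 lay within the WT range. The log2 fold change was 0.41 (SE 0.23, adjusted p = 0.331 by edgeR), turning to -0.04 when scaled on osteocyte genes.

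Col6a6, likewise a possible partner of the alpha 1 and alpha 2 chains, had 20, 24 and 20 reads in Col1a1+/- and 14, 32 and 54 in WT. In CPM these are 0.599, 0.839 and 0.706 in Col1a1+/- and 0.434, 1.16 and 1.87 in WT, so the WT libraries enclosed the others. Its log2 fold change of -0.69 had an SE of 0.52 (adjusted p = 0.485 by edgeR). It became -0.15 without WT replicate 3 and turned to 0.67 (SE 1.10) with the muscle covariate. In WT replicates 1, 2 and 3 the muscle list held 52452, 62725 and 81424 CPM, in the order of Col6a6. In Col1a1+/- replicates 1, 2 and 3 it held 19447, 36951 and 17272 CPM. Col1a1+/- replicates 1 and 3 had more Col6a6 than WT replicate 1 at less of the muscle list. The source of Col6a6 RNA was not tested. Col6a4, the chain outside the 5, had 12 to 18 reads in Col1a1+/- and 18 to 21 in WT (log2 fold change -0.39, SE 0.43, adjusted p = 0.642).

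Of the classical chain genes, Col6a1 and Col6a2 kept close to the same proportion in all 6 libraries. A ratio taken inside 1 library is free of the scaling between libraries. The ratio of Col6a1 to Col6a2 reads was 0.970, 0.994 and 0.990 in Col1a1+/- and 0.984, 0.995 and 1.06 in WT. These 6 values span 0.970 to 1.06 while the genes themselves ranged 2.25-fold and 2.24-fold over the same libraries. The means were 0.985 ± 0.0128 in Col1a1+/- and 1.01 ± 0.0421 in WT (SD, n = 3 each; exact permutation p = 0.4).

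Col6a3 followed the other chains less closely. Its ratio to Col6a1 was 0.707, 0.627 and 0.818 in Col1a1+/- and 0.765, 0.648 and 0.640 in WT. The highest value was that of Col1a1+/- replicate 3, the library with the most Col6a3, and the genotypes overlapped (0.717 ± 0.0961 and 0.684 ± 0.0697; exact permutation p = 0.7). Its ratio to Col6a2 was 0.686, 0.623 and 0.810 in Col1a1+/- and 0.752, 0.645 and 0.680 in WT (exact permutation p = 0.8).

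**Figure D3:**
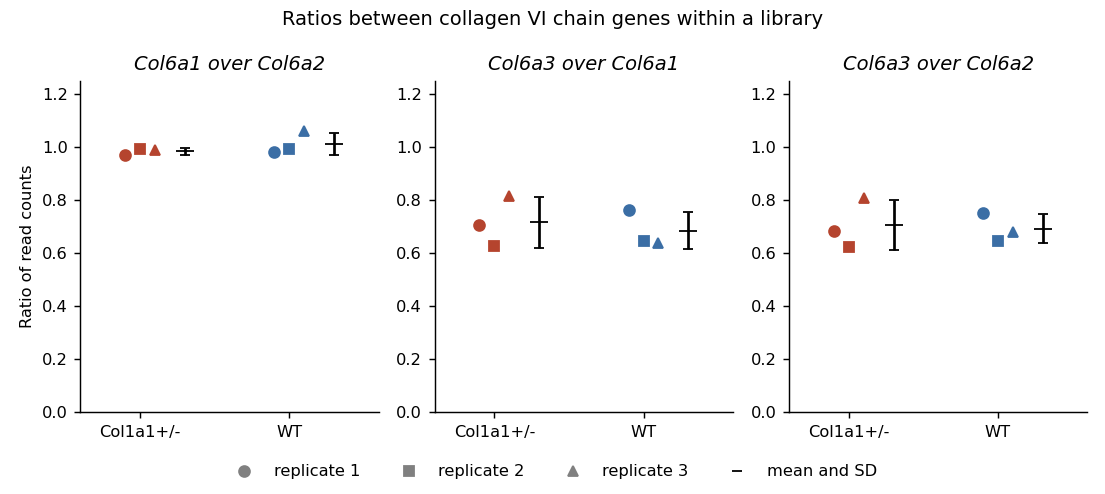
Ratio of read counts between classical collagen VI chain genes in each library (y axis from 0), for 3 Col1a1+/- and 3 WT tibia libraries with the mean and SD. Col6a1 over Col6a2 lies between 0.970 and 1.06 throughout, and the ratios with Col6a3 spread more, with Col1a1+/- replicate 3 highest.

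Relative to Col6a3, the alternative chains were scarce in both genotypes. Per kb of exon Col6a5 was at 2.03%, 1.44% and 0.733% of Col6a3 in Col1a1+/- and 1.43%, 1.89% and 1.89% in WT (exact permutation p = 0.7). Col6a6 was at 0.211%, 0.205% and 0.126% of Col6a3 in Col1a1+/- and 0.187%, 0.485% and 0.882% in WT (exact permutation p = 0.3). Both sets of values overlapped between genotypes.

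Summed per kb of exon, the 5 chains stood at 216, 343 and 373 CPM in Col1a1+/- and 164, 195 and 171 CPM in WT. The sum was 1.76 times as high in Col1a1+/- (311 ± 83.2 against 177 ± 15.8 CPM per kb; exact permutation p = 0.1), with Col6a1 as its largest part. Set against other collagen genes in the same library, the sum showed no separation of genotypes. Over Col1a1 it was 0.0232, 0.0425 and 0.0411 in Col1a1+/- and 0.0293, 0.0208 and 0.0205 in WT. Here Col1a1+/- replicate 1 lay among the WT libraries, and the mean ratio was 1.51 times as high in Col1a1+/- (exact permutation p = 0.2).

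Against Col1a2, the partner chain of type I collagen, the ratio averaged 0.0544 ± 0.0153 in Col1a1+/- and 0.0573 ± 0.0138 in WT (exact permutation p = 1). Against Col5a1 and Col5a2, genes of the type V collagen that starts type I fibrils, the means were 2.26 ± 0.432 and 1.30 ± 0.299 in Col1a1+/- and 2.32 ± 0.228 and 1.45 ± 0.227 in WT (exact permutation p = 0.8 and 0.6). Against Col3a1, the gene of type III collagen, they were 1.41 ± 0.337 in Col1a1+/- and 1.13 ± 0.192 in WT (exact permutation p = 0.4). These 5 ratios and the 5 between chains formed 1 family of 10, in which no adjusted p was below 0.889. With 3 against 3 the exact permutation p cannot be below 0.1, so none of the 10 could have passed 0.05. This outcome therefore cannot show that the ratios are alike.

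Col1a1+/- replicate 1 stood apart in these ratios. It had the lowest ratio to Col1a2, Col5a1 and Col5a2 of all 6 libraries, at 0.0367, 1.76 and 0.957. It was the lowest Col1a1+/- library for collagen VI. Col5a1 had 1051, 1163 and 1280 CPM in Col1a1+/- and 549, 733 and 694 CPM in WT (log2 fold change 0.82, adjusted p = 0.036 by edgeR). Col3a1 was low in the same library, with 1214, 3132 and 2617 CPM in Col1a1+/- against 1347, 1491 and 1841 CPM in WT (log2 fold change 0.57, adjusted p = 0.34). The ratio of collagen VI to Col3a1 in that library, 1.75, was the highest of the 6.

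**Figure D4:**
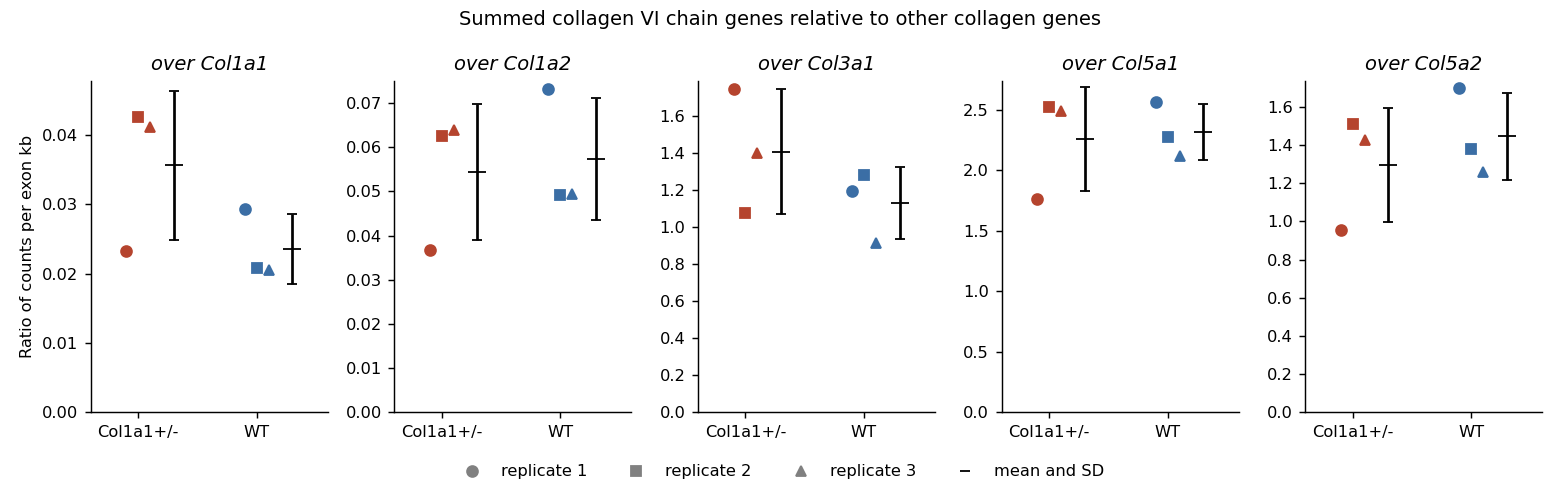
Summed counts per exon kb of the 5 collagen VI chain genes divided by those of Col1a1, Col1a2, Col3a1, Col5a1 or Col5a2 in each library (y axes start at 0 and differ between panels), with the mean and SD of 3 Col1a1+/- and 3 WT libraries. The genotypes overlap in every panel, and Col1a1+/- replicate 1 is lowest over Col1a2, Col5a1 and Col5a2 and highest over Col3a1.

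Genes with a profile over the 6 libraries most like that of the classical chains were ranked by the root mean square difference in centred log2 CPM from the mean of Col6a1, Col6a2 and Col6a3. The chains themselves differed from their mean by 0.05, 0.04 and 0.09 log2 units. Nearest among 13604 genes were Cfap300, a cilia and flagella associated protein gene (0.12), and Epb41l3, which encodes a membrane skeleton protein of the band 4.1 family (0.13). Vcan, the gene of the large proteoglycan versican, came next at 0.13, with 33.7, 41.8 and 63.7 CPM in Col1a1+/- and 25.4, 26.6 and 25.5 CPM in WT. Then followed Slitrk6 (0.13), Vstm2b (0.14), the BMP ligand gene Bmp8a (0.14), the Notch target Hey2 (0.15) and Qsox1, which encodes a sulfhydryl oxidase that forms disulfide bonds in secreted proteins (0.16). Cfap300 and Vstm2b had at most 3.25 and 1.94 CPM in any library. Of these 8 genes Bmp8a alone passed the threshold (adjusted p = 0.0373 by edgeR). This likeness is a description over 6 libraries that share the genotype difference.

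With TMM scaling 10 of 11 receptor genes of collagen VI had a log2 fold change above 0, where 49.1% of tested genes did. Their median was 0.30 (-0.25 on the osteocyte scale). Of the 11 receptor genes tested, 2 rose and none was called lower, beside a median of -0.01 over all tested genes and 1.43% of genes called higher. In 7 of the 11 all Col1a1+/- libraries were above all WT libraries, as they were for 14.0% of all tested genes. This list and those of the next paragraphs were chosen with earlier results of these data known. Setting their counts beside the share over all genes is therefore a description and not a test. Itga10, the alpha 10 integrin subunit of chondrocytes, had 255, 228 and 255 CPM in Col1a1+/- and 137, 159 and 148 CPM in WT (log2 fold change 0.74, SE 0.11, adjusted p = 0.0238 by edgeR). Of its exon length 33.5% overlaps another gene model on the same strand, where reads were not counted. Cspg4, the gene of the NG2 proteoglycan, a cell surface protein that binds collagen VI, had 102, 104 and 119 CPM in Col1a1+/- and 53.3, 79.9 and 66.4 CPM in WT (log2 fold change 0.70, adjusted p = 0.0405 by edgeR).

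The collagen receptor kinase genes Ddr2 and Ddr1 stood at 0.52 (adjusted p = 0.0605) and -0.06 (adjusted p = 0.874 by edgeR). Antxr2 and Antxr1 encode the anthrax toxin receptors, which bind collagen VI, and were singled out after the values were seen. Antxr2 had 138, 135 and 163 CPM in Col1a1+/- and 113, 123 and 110 CPM in WT (log2 fold change 0.33, adjusted p = 0.122 by edgeR), and Antxr1 stood at 0.30 (adjusted p = 0.253). Ddr2 shares 6.92% of its exon length with a gene on the opposite strand. Calls over the whole table depended on single libraries. Against 803 genes with all libraries, edgeR called 0 without Col1a1+/- replicate 1 and 0 without WT replicate 3 (3275 and 3239 at an unadjusted p under 0.05), 8 without WT replicate 2 and 44 without Col1a1+/- replicate 3, and 930 without Col1a1+/- replicate 2 and 1766 without WT replicate 1. The receptor calls went with these. Without WT replicate 2 or 3, or Col1a1+/- replicate 1 or 3, edgeR called 0 of the 11, with 4 to 6 at an unadjusted p under 0.05, and without Col1a1+/- replicate 2 it called 1, and without WT replicate 1 it called 3. The receptor median stayed between 0.26 and 0.38 in these 6 fits. The osteocyte-scaled receptor median lay 0.30 above that of all genes, as it did with TMM, a distance that scaling can hardly change.

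Among matrix proteins that bind or lie beside collagen VI, fibronectin and biglycan genes rose. Of 17 such genes tested, 2 rose and none was called lower, beside 1.43% of all tested genes called higher and 2.91% lower. The median log2 fold change was 0.40 (-0.17 on the osteocyte scale), against -0.01 over all tested genes. Fn1, encoding fibronectin, had 2172, 2533 and 2559 CPM in Col1a1+/- and 1099, 1226 and 1058 CPM in WT (log2 fold change 1.10, SE 0.17, adjusted p = 0.0232 by edgeR). Bgn, encoding biglycan, a small proteoglycan that organises collagen VI into networks, had 2228, 2230 and 2580 CPM in Col1a1+/- and 1055, 1490 and 1347 CPM in WT (log2 fold change 0.85, adjusted p = 0.0424 by edgeR). All Col1a1+/- libraries were above all WT libraries for both genes.

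Dcn, the gene of the related proteoglycan decorin, stood at 0.63 (adjusted p = 0.0937 by edgeR), and Mfap5, a microfibril protein gene, at -0.03 (adjusted p = 0.971). Without WT replicate 2 or 3, or Col1a1+/- replicate 1 or 3, edgeR called 0 of the 17, with 5 to 8 at an unadjusted p under 0.05, 1 without Col1a1+/- replicate 2 and 3 without WT replicate 1. In these fits, whose calls over all genes are given above, the list median stayed between 0.27 and 0.57. The osteocyte-scaled median of this list lay 0.38 above that of all genes (0.41 with TMM), a distance that scaling can hardly change.

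Genes for the enzymes that modify, fold and cut collagen chains leaned higher in Col1a1+/-. With TMM scaling all 14 had a log2 fold change above 0, where 49.1% of tested genes did, 4 rose (1.43% of all tested genes were called higher), none was called lower and the median was 0.60 (0.06 on the osteocyte scale). These enzymes serve many collagens, and type I collagen is by far the most abundant in bone. The 4 that rose were Plod2 (log2 fold change 0.74, adjusted p = 0.0249), a lysyl hydroxylase gene, P4ha1 (0.67, adjusted p = 0.0342), a prolyl 4-hydroxylase subunit gene, Bmp1 (0.79, adjusted p = 0.0386), the gene of a protease that trims procollagens, and Colgalt2 (1.17, adjusted p = 0.0464 by edgeR), a galactosyltransferase gene. Plod2 shares 6.42% of its exon length with a gene on the opposite strand. Colgalt2 had 35.0, 29.0 and 16.5 CPM in Col1a1+/- and 13.1, 11.2 and 11.5 CPM in WT, and its highest library was the one in which the collagen VI chains were lowest for Col1a1+/-. Of these 14, edgeR called 0 without WT replicate 2, WT replicate 3 or Col1a1+/- replicate 1 (9 to 12 at an unadjusted p under 0.05), 1 without Col1a1+/- replicate 3 and 6 without WT replicate 1. The list median stayed between 0.50 and 0.67 in the 6 fits, and the calls over all genes in them were the 0 to 1766 given above.

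**Figure D5:**
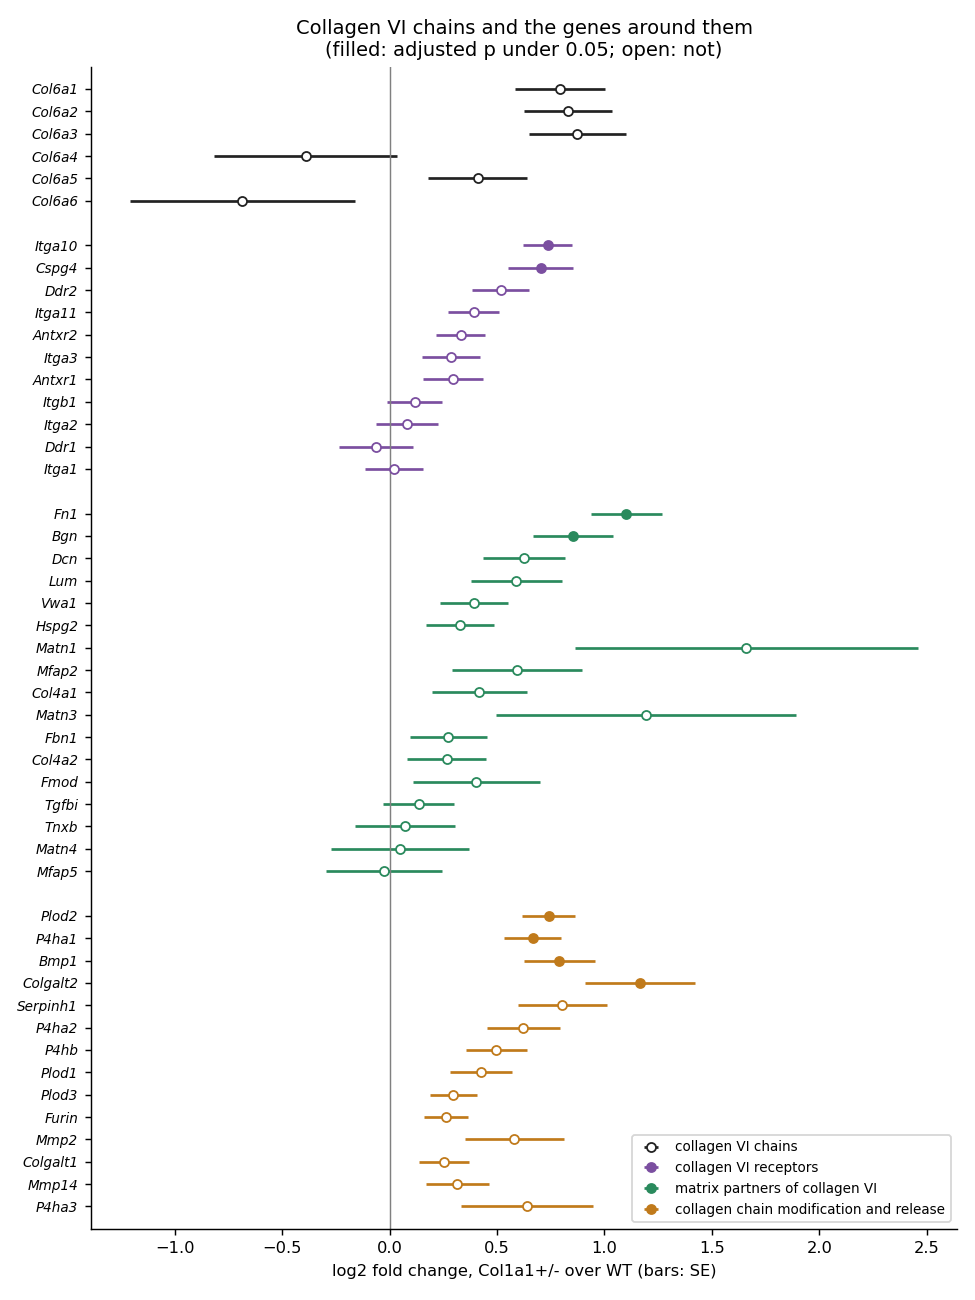
Log2 fold change (Col1a1+/- over WT, bars show SE) of the collagen VI chains and of 42 genes for receptors, matrix partners and chain modification and release, filled where the adjusted p by edgeR is under 0.05. The 3 classical chains lie at 0.79 to 0.87 without passing the threshold, and 8 of the 42 other genes pass, all above 0.

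Markers of the cells that could supply collagen VI RNA differed in how they stood between genotypes. The 10 fibroblast markers summed to 1198 to 1328 CPM in Col1a1+/- and 916 to 1086 CPM in WT, with a median log2 fold change of 0.19. The 7 tendon markers summed to 508 to 1104 CPM in Col1a1+/- and 459 to 504 CPM in WT, with a median of -0.49. Only 3 of the 7 had a log2 fold change above 0 (range -1.32 to 1.42), so the higher sum does not stand for the list. No fibroblast or tendon marker was called, beside 1.43% of all tested genes called higher and 2.91% lower. The 10 chondrocyte markers summed to 3072 to 4638 CPM in Col1a1+/- and 1392 to 2250 CPM in WT, and 5 of them rose, beside 1.43% of all tested genes called higher. The 10 osteoblast markers, of which 5 rose (median 0.73, beside the same 1.43%), summed to 13250 to 14752 CPM in Col1a1+/- and 6493 to 9444 CPM in WT, so that defining genes of bone were present in every library.

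Within Col1a1+/-, some lists had the library order of the chains and others did not. In Col1a1+/- replicates 1, 2 and 3, where Col6a1 had 524, 852 and 891 CPM, osteoblast markers summed to 13250, 13767 and 14752 CPM, osteocyte markers to 737, 806 and 1201 CPM and osteoclast markers to 7085, 7604 and 8748 CPM, in the same order as Col6a1. Tendon markers summed to 1104, 1040 and 508 CPM and chondrocyte markers to 4638, 4603 and 3072 CPM in those libraries, in the opposite order. Fibroblast markers, at 1325, 1328 and 1198 CPM, and the muscle list, at 19447, 36951 and 17272 CPM, followed neither order and were lowest in replicate 3. Likeness of order over 3 libraries was not tested, and few values can share an order by accident. Endothelial markers (641 to 767 CPM in Col1a1+/- and 590 to 719 CPM in WT), Schwann cell markers (114 to 138 CPM and 106 to 132 CPM) and adipocyte markers (264 to 414 CPM and 233 to 465 CPM) overlapped between genotypes. None of the marker genes in these tables was at 0 in all libraries. The share of any of these cell types in the level of collagen VI was not tested. The muscle and neutrophil covariates given above do not measure such a share. The muscle list did not overlap between genotypes (17272 to 36951 CPM in Col1a1+/- and 52452 to 81424 CPM in WT), so its fit cannot part it from genotype. The neutrophil list stood apart mainly in WT replicate 1.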

How the data were processed

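Each deposited table gives raw counts of reads by gene for 1 library, not normalized, as the file headers show. Reads had passed through Trimmomatic 0.39, HISAT2 2.2.1 and SAMtools 1.20, per the submitters' processing notes. featureCounts 2.0.3 counted reads over exons of Ensembl release 107 on GRCm39 without strand, leaving out reads that fit several places or genes, and counted each mate of a pair, per the file headers. Symbols came from a mouse gene name table by gene identifier (91.8% of identifiers named).

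Genes kept by filterByExpr (18514, holding at least 99.87% of counts) were fitted on the whole table in R 4.3.3 using edgeR 4.0.16 and its robust quasi-likelihood F test with TMM factors and genotype as the only term, and p-values were adjusted over all tested genes. The SE is the absolute log2 fold change over the square root of F. DESeq2 1.42.0, limma-voom (limma 3.58.1), other scalings, filters and covariates were alternatives. Ratios and sums used an exact two-sided permutation test. No library was a copy of another: within a genotype, pairs differed by 23.3 to 78.1 times the counting variance. The fit was checked on simulated counts.

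The members and gene lists were chosen with earlier results of these data known. Named beside the 5 chains and Col6a4 are Col1a1, the compared collagens, up to 4 genes of each list (every called gene, then the smallest p in each direction) and the 8 genes most alike in profile among those with a symbol, no predicted-model name and a mean of at least 1 CPM. Ahsp, a listed erythroid marker, was not matched, and the other erythroid, macrophage, osteocyte and osteoclast markers summed to 323 to 400 CPM, 740 to 834 CPM, 737 to 1201 CPM and 7085 to 8748 CPM in Col1a1+/- and to 293 to 470 CPM, 596 to 685 CPM, 454 to 935 CPM and 4994 to 6487 CPM in WT.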

Additional observations from a re-analysis of the deposited data

How the results depend on the processing

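Col6a1, Col6a2 and Col6a3 kept a log2 fold change above 0 under all 10 alternatives and with any 1 library left out (0.68 to 1.01, 0.72 to 1.04 and 0.63 to 1.10). They passed the threshold with library totals (0.88, 0.91 and 0.96; adjusted p = 0.0328, 0.0306 and 0.0478 by edgeR) and with DESeq2 (0.79, 0.83 and 0.87), and without a filter Col6a1 (0.79) and Col6a2 (0.82) did. Col6a5 turned to -0.0405 on the osteocyte scale (0.32 to 0.58 with 1 library left out). Col6a6 turned to 0.67 with the muscle covariate (-1.05 to -0.15 with 1 library left out), and Col6a4 lay between -0.54 and -0.17 with 1 library left out. The cause of these shifts was not tested.

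The number of genes called was 1327 with library totals, 1472 without a filter, 2256 with DESeq2 and 0 by edgeR with the muscle covariate (1171 at an unadjusted p under 0.05), and 0 to 1766 with 1 library left out. Called receptors, matrix partners and modification genes, 2, 2 and 4 with all libraries, numbered 4, 4 and 7 with library totals, 0, 0 and 0 on the osteocyte scale (0, 2 and 0 at an unadjusted p under 0.05) or with the muscle covariate (2, 5 and 3), and 1, 1 and 2 with the neutrophil covariate. DESeq2 called 4 matrix partners and 7 modification genes, and 7 modification genes were called without a filter. With 1 library left out the counts were 0 to 3, 0 to 3 and 0 to 6.

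Replicate numbers did not pair the samples: the deviations of same-numbered libraries correlated at 0.107, 0.0413 and -0.122 over genes. With a replicate block 126 genes were called, and 0 receptors, partners and modification genes (5, 8 and 9 at an unadjusted p under 0.05), with Col6a1, Col6a2 and Col6a3 at 0.76, 0.80 and 0.82 (adjusted p = 0.0844, 0.081 and 0.102 by edgeR).

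With 1 library left out, the log2 ratio of genotypes (Col1a1+/- over WT) for Col6a1 over Col6a2 lay between -0.06 and -0.01, for Col6a3 over Col6a1 between -0.0376 and 0.16 and for Col6a3 over Col6a2 between -0.0817 and 0.11. Col6a5 over Col6a3 lay between -0.68 and -0.0047 and Col6a6 over Col6a3 between -1.92 and -0.89. The summed chains over Col1a1 lay between 0.45 and 0.83, over Col1a2 between -0.21 and 0.14, over Col3a1 between 0.13 and 0.48, over Col5a1 between -0.12 and 0.11 and over Col5a2 between -0.28 and 0.0224. Their summed level lay between 0.66 and 1.02, and was 0.25 on the osteocyte scale. Depth limits Col6a5 and Col6a6, with 14 to 197 reads a library.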
